A study of Owenia fusiformis with 11 samples.

Results

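Among the 63732 consensus peaks of accessible chromatin in the annelid Owenia fusiformis, 459 (0.72%) had a lower signal at each successive stage from the gastrula to the competent larva. A peak belonged to this set, called here the stepwise closing peaks, when its mean over 8 libraries was at least 100 and when the mean of each stage was at least 1.3 times that of the next stage. The peaks that reached a mean of 100 numbered 47582, and the set was 0.965% of them. The members were thus chosen by their levels in all 8 libraries, so the falls are given as descriptions with no test, and closing names only this order of the stage means. The opposite course, with a rise of at least 1.3 times at every step, was found at 319 peaks.

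The 8 ATAC-seq libraries covered 4 stages with 2 replicates each, which were the gastrula (9 hours after fertilization), the elongation stage (13 hours), the mature mitraria larva (27 hours) and the competent larva (3 weeks). Whole embryos or larvae were pooled to about 50000 cells for a library, from some 500 gastrulae, 300 elongating embryos, 150 mature larvae or 40 competent larvae, so that every value averages over all cell types. Cultures were kept in artificial sea water, and larvae received mixed algae. The labels do not say whether the replicates came from separate spawnings. According to the methods of the study, elongation, mature larva and 1 gastrula replicate shared a sequencing platform, whereas the remaining gastrula replicate and both libraries of competent larvae were run on a different one. The labels do not give which gastrula replicate this was, and for the last step platform and stage cannot be told apart.

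In ATAC-seq, the Tn5 transposase inserts sequencing adaptors where DNA is not protected by nucleosomes, so promoters, enhancers and other regulatory DNA appear as peaks of reads. Development from a gastrula to a larva takes cells from a few early states to many differentiated tissues, and regulatory elements are opened and closed along the way. O. fusiformis passes through a planktonic, feeding mitraria larva, in which the trunk of the future worm grows as a rudiment before a rapid metamorphosis. In whole animals, fewer cells of a type and less accessibility per cell cannot be told apart.

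Over the stepwise closing peaks, the median normalized signal in replicates 1 and 2 was 459.3 and 393 for the gastrula and 297 and 258 for elongation. It was 167 and 169 in the mature larva libraries, and 105 and 111 in the competent larva libraries. The set thus stood above the median of peaks with a mean of at least 100 in both gastrula libraries, where that median was 252 and 267, and below it in both competent larva libraries, where it was 235 and 221. Its share of the signal in all consensus peaks was 1.63% and 1.37% in the gastrula libraries and 0.387% and 0.417% in the competent larva libraries.

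**Figure D1:**
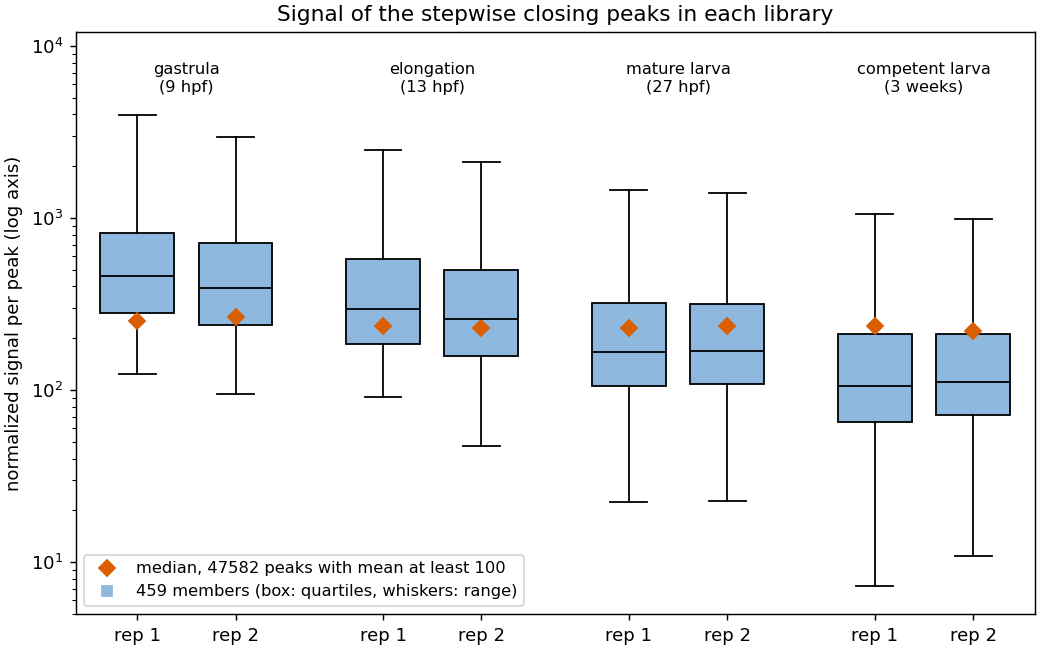
Normalized signal per peak (log axis) of the 459 stepwise closing peaks in each of the 8 ATAC-seq libraries, with boxes for quartiles, whiskers for the lowest and highest peak, and diamonds for the median of the 47582 peaks with a mean of at least 100. The median of the set went from 459.3 and 393 in the gastrula to 105 and 111 in the competent larva, while the diamonds stayed between 221 and 267.

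These medians rested on unequal depth. The approximate reads in consensus peaks numbered 7983553 to 44808266 per library, and a stepwise closing peak held a median of 672 reads in elongation replicate 2, the deepest library, but 44.0 in competent larva replicate 1, the shallowest. In that library 48 members had fewer than 20 reads and the lowest had 3.01, so their last step carried the largest counting error. In each of the other libraries at most 2 members had fewer than 20 reads.

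The 3 steps had similar median falls, and they lasted 4 hours, 14 hours and the rest of the 3 weeks. The rule asked for at least 1.3 times at each step, so this similarity is partly built into the choice. The median ratio of a stage to the next was 1.44 from gastrula to elongation, 1.54 from elongation to mature larva and 1.47 from mature to competent larva. Over all peaks with a mean of at least 100 the same medians were 1.11, 1.00 and 1.08. Relative to these peaks, the median step of the set on the log2 scale was -0.38, -0.62 and -0.45. The elongation to mature larva step was the largest of the 3 at 203 members (44.2%), the mature to competent larva step at 137 and the gastrula to elongation step at 119. A step of at least 2-fold was found at 24, 81 and 43 members in the order of development.

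**Figure D2:**
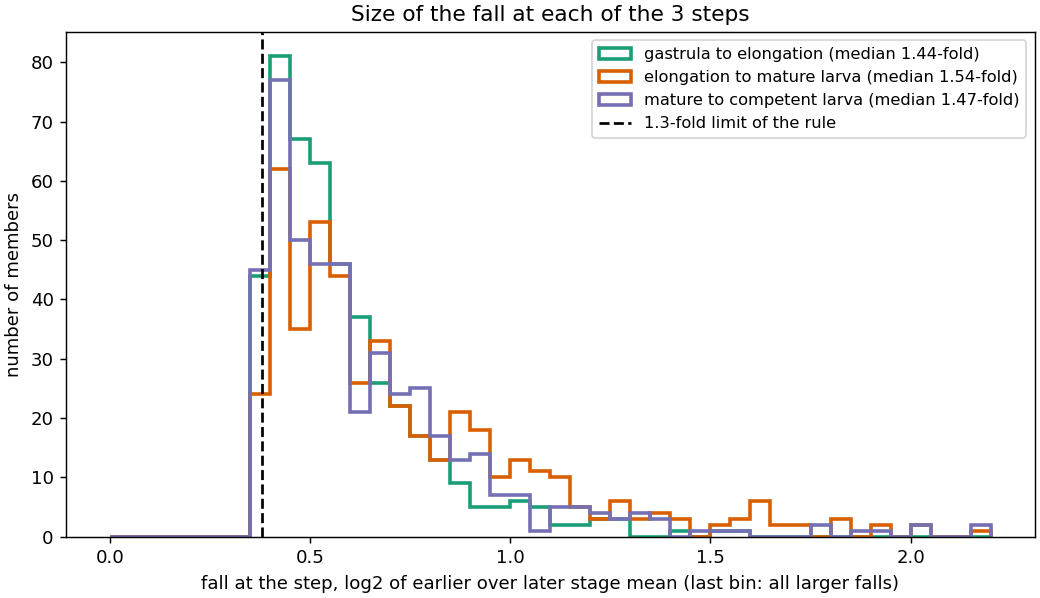
Histogram of the fall at each of the 3 steps for the 459 stepwise closing peaks, on the log2 scale of the earlier over the later stage mean, with the 1.3-fold limit of the rule as a dashed line and all larger falls in the last bin. Most falls lie close to the limit, with medians of 1.44, 1.54 and 1.47, and the elongation to mature larva step has the most falls of 2-fold or more (81 members).

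From gastrula to competent larva the ratio had a median of 3.58, with quartiles of 2.91 and 4.59 and a range of 2.23 to 34.0. It reached 4-fold at 177 members and 8-fold at 22. A median of 28.0% of the gastrula value was left in the competent larva, between 2.94% and 44.8% for single members. The largest step was a median of 1.23 times the smallest, and at 86 members all 3 steps lay between 1.3 and 1.5. Every step had to be at least 1.3 times, so this evenness is also partly built into the choice.

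Stepwise closing was a small part of the closing in these libraries. Of the 47582 peaks with a mean of at least 100, 11856 (24.9%) passed the 1.3-fold limit downwards at the first step, 2239 of those also at the second, and 459 of those also at the third. Over all 47582 peaks the limit was passed downwards by 18.4% at the second step and by 25.5% at the third. At the second step the share was similar among peaks that had fallen at the first (18.9%). At the third step it was lower among the 2239 peaks than over all 47582. Adjacent steps share a stage mean, and dependence between the steps was not tested. With each step sorted into fall, level or rise at the 1.3-fold limit, the set ranked the 19th of 27 courses by size, and the most frequent course, level at every step, held 11279 peaks. A further 3763 peaks had at least the same total fall, 2.197-fold or more, without passing the limit at each step. Among these, 246 passed it at the first step only, 391 at the second only, 461 at the third only and 2665 at 2 steps.

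The balance between stepwise closing and stepwise opening depended on how the libraries were scaled. As deposited, the 459 closing peaks outnumbered the 319 opening peaks. With every library scaled to the same total the numbers were 389 and 358, whereas with every library scaled to the same median they were 208 and 546, and after quantile normalization 272 and 476. Which course was the more frequent therefore changed with the scaling, and no excess of either is reported.

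The 8 steepest falls were sought among the members in which, at every step, the lower library of a stage was above the higher library of the next stage.
The steepest was OFUS_peak_47101, 643 bp wide, on scaffold 15 at 12671966-12672608. Replicates 1 and 2 had a signal of 749 and 858 in the gastrula, 366 and 476 in elongation, 193 and 180.0 in mature larvae, and 31.1 and 78.3 in competent larvae. Both libraries of each stage were thus below both of the stage before. The stage means were 804 ± 77.3, 421 ± 77.8, 186 ± 8.89 and 54.7 ± 33.4 (SD, n = 2), a total fall of 14.7-fold that left 6.81% of the gastrula value and had its largest step, 3.404-fold, at the end.

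OFUS_peak_37513 (563 bp, scaffold 11, 15507945-15508507) had a signal of 1504 and 1038 in the gastrula, 671 and 554 in elongation, 182 and 190.5 in mature larvae, and 103 and 83.0 in competent larvae. Its falls were 2.07-fold, 3.29-fold and 2.00-fold, so each step at least halved the signal, and the total was 13.7-fold. OFUS_peak_22211 (492 bp, scaffold 6, 13400018-13400509) had 801 and 866 in the gastrula, 631 and 559.8 in elongation, 167 and 164 in mature larvae, and 86.2 and 54.7 in competent larvae. Here the elongation to mature larva step was the largest at 3.59-fold, after a first step of 1.40-fold.

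The first step was the largest at OFUS_peak_22802 (507 bp, scaffold 6, 17492424-17492930). Its signal was 731 and 532 in the gastrula and 216 and 213 in elongation, then 105 and 139.6 in mature larvae and 40.7 and 95.3 in competent larvae. The first step of 2.95-fold was the largest gastrula to elongation fall of any member. OFUS_peak_16456 (1778 bp, scaffold 4, 27673643-27675420) was low throughout, with 147 and 268 in the gastrula, 110.4 and 96.2 in elongation, 77.6 and 80.4 in mature larvae, and 7.22 and 25.8 in competent larvae. The value of 7.22 was the lowest of any member in any library and stood for about 3 reads, so the size of its last step, 4.79-fold, is known only roughly. The other steep falls, at OFUS_peak_39618 (10.1-fold), OFUS_peak_17639 (9.66-fold) and OFUS_peak_13772 (9.63-fold), began at gastrula means between 408 and 957.

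**Figure D3:**
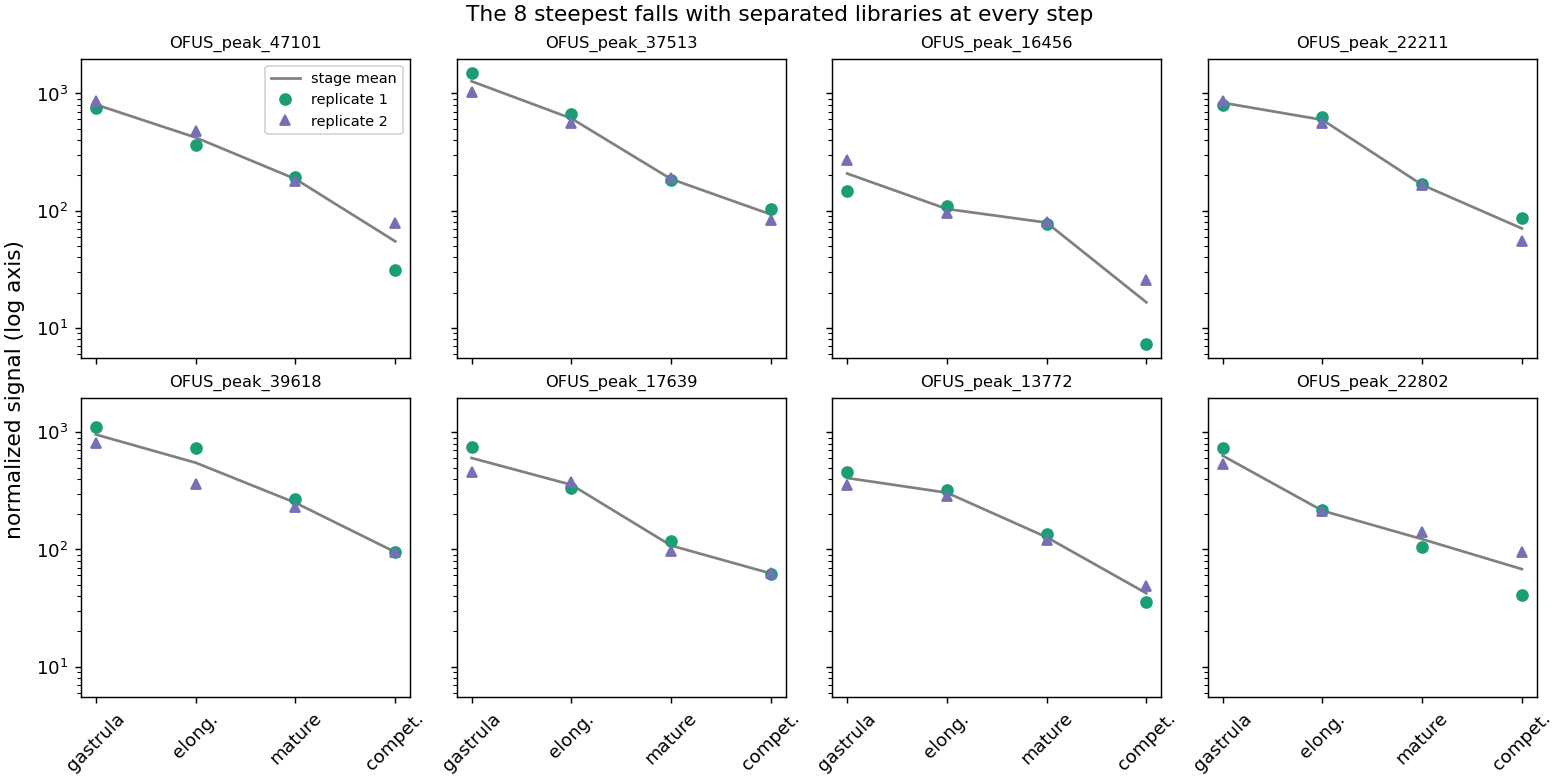
Normalized signal (log axis) at the 4 stages for the 8 steepest stepwise closing peaks with separated libraries at every step, with circles for replicate 1, triangles for replicate 2 and lines for the stage means. All 8 courses go down at every step, from 14.7-fold in total at OFUS_peak_47101 to 9.29-fold at OFUS_peak_22802, and the replicates lie farthest apart in the competent larva at OFUS_peak_16456.

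Larger falls were found at members whose replicates did not agree. At OFUS_peak_6237 (761 bp, scaffold 2, 18348782-18349542), with the largest total fall of 34.0-fold, the signal was 147 and 730.5 in the gastrula, 382 and 47.3 in elongation, 116 and 94.5 in mature larvae, and 9.60 and 16.2 in competent larvae. Gastrula replicate 1 was below elongation replicate 1, so the first step of this peak was not seen in both replicates. This peak was picked after its values were seen. Of the 20 largest total falls, 11 had separated libraries at every step.

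The members with the highest gastrula signal were wide peaks that also stood above the median of the set in competent larvae. OFUS_peak_44737 (2335 bp, scaffold 14, 11209536-11211870) had a signal of 3974 and 2942 in the gastrula, 2489 and 2118 in elongation, 1361 and 1405 in mature larvae, and 1031 and 988 in competent larvae. Its libraries did not overlap between stages, and its competent larva mean of 1009 ± 30.5 (SD, n = 2) was 3.43-fold below the gastrula mean of 3458 ± 729.8 (SD, n = 2). OFUS_peak_1355 and OFUS_peak_41175, with gastrula means of 2657 and 2623, had total falls of 4.30-fold and 2.86-fold.

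OFUS_peak_13336 (1262 bp, scaffold 4, 5500421-5501682) started at a similar height, with 2863 and 2358 in the gastrula and 2201 and 1811 in elongation. It then had 804 and 733 in mature larvae and 359 and 328 in competent larvae. In this peak the gastrula and elongation stages stood together, 1.301-fold apart, and the 2 later steps were 2.61-fold and 2.24-fold.

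An even decline across all steps was seen at OFUS_peak_9350 (1309 bp, scaffold 3, 5349429-5350737). Its signal was 1161 and 902 in the gastrula, 485 and 651 in elongation, 294 and 314 in mature larvae, and 160.0 and 183 in competent larvae. The 3 steps were 1.82-fold, 1.87-fold and 1.77-fold. OFUS_peak_48671 went from 1735 to 345 by steps of 1.76-fold, 1.63-fold and 1.76-fold, and OFUS_peak_44201 from 215 to 53.2 by steps of 1.57-fold, 1.63-fold and 1.58-fold. The even course of OFUS_peak_10208 (1.58-fold, 1.62-fold and 1.65-fold) rested on a gastrula mean over unlike replicates of 295 and 642, the first of which was below elongation replicate 1 at 309.6.

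Close to the limit of the rule, membership turned on small differences. The smallest step was 1.3001 at OFUS_peak_49498, 1.3005 at OFUS_peak_44350 and 1.3007 at OFUS_peak_47419, which were members, and 1.2997 at OFUS_peak_61653, 1.2996 at OFUS_peak_32032 and 1.2996 at OFUS_peak_32130, which were not. OFUS_peak_32032 had a signal of 421 and 364 in the gastrula, 249.6 and 267 in elongation, 168 and 177 in mature larvae, and 146 and 119.0 in competent larvae. Its libraries were separated at every step, and 1659 peaks with a mean of at least 100 likewise had separated libraries at every step without being members.

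Replicates of a stage were a median of 1.21, 1.23, 1.14 and 1.21 times apart at the members, in the order of the stages. Over the peaks with a mean of at least 100 these medians were 1.21, 1.16, 1.12 and 1.16. The replicates were at least 1.3 times apart, the size of a step of the rule, at 168, 190, 73 and 152 members. Separated libraries, with both of the earlier stage above both of the later, were found at 384 members for the first step, 433 for the second and 432 for the third. Over all consensus peaks this held for 31.8%, 30.5% and 34.4%. At every step it held for 350 members (76.3%), against 3.47% of all consensus peaks. Of the 3763 other peaks that fell at least 2.197-fold in total, it held for 21.2%. At a single member it held at no step. The rule works on the same means, so nothing is read from these shares. The median coefficient of variation between replicates was 13.3% in the gastrula, 14.8% in elongation, 9.13% in mature larvae and 13.3% in competent larvae.

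Gastrula replicate 1 was above replicate 2 at 326 members (71.0%), whereas over all peaks with a mean of at least 100 this held for 42.5%. Against the elongation mean, gastrula replicate 1 alone gave a median first step of 1.56 and replicate 2 alone one of 1.37, and the 1.3-fold limit was reached at 407 and 290 members. Elongation replicate 1 was likewise above replicate 2 at 333 members (72.5%, against 56.6%). In the mature larva replicate 1 was the higher at 234 members (51.0%, against 47.3%), and in the competent larva at 196 (42.7%, against 61.4%).

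Choosing peaks in one replicate and reading them in the other separated the choice from the measurement, with the mean of at least 100 also taken over the 4 choosing libraries alone. The rule applied to the replicate 1 libraries alone chose 577 peaks, and in the replicate 2 libraries 364 of them (63.1%, 95% Wilson interval 59.1% to 66.9%, for counting error only) were lower at every step, against 18.6% of the peaks with a mean of at least 100. A fall of at least 1.3 times at every step was seen again at 88 (15.3%, against 0.881%). In the reverse direction 412 peaks were chosen, of which 266 (64.6%, against 16.99%) were lower at every step and 85 (20.6%, against 1.18%) passed the limit at every step. A stepwise decline of any size thus recurred at most of the chosen peaks, and a decline of the full size at a minority. Of the 577 peaks chosen in replicate 1, 229 were stepwise closing peaks, and of the 412 chosen in replicate 2, 169 were. These shares therefore describe the chosen peaks and not the set.

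The size of the steps was smaller in the replicate that had not chosen the peaks for 5 of the 6 step medians. For peaks chosen in replicate 1, the median ratios in replicate 2 were 1.32, 1.51 and 1.37, compared with 1.48, 1.59 and 1.59 in the replicate that chose them. For peaks chosen in replicate 2, the elongation to mature larva step was larger in replicate 1 (1.73) than in replicate 2 (1.47), and the other steps were 1.297 and 1.344 after 1.48 and 1.49. The elongation to mature larva step therefore recurred at the largest size in both directions.

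Single steps were also fitted with limma across the 61869 peaks above 0 in at least 1 library, with Benjamini-Hochberg adjusted p under 0.05. Among the members, 23 were called closing from gastrula to elongation, 155 from elongation to mature larva and 138 from mature to competent larva, where 0.501%, 4.58% and 7.33% of all peaks were called closing. Since the rule used these contrasts, nothing is read from the members' share. All 3 steps were called at 6 members, 2 steps at 77, 1 at 144 and none at 232. The number of steps called was not counted over all peaks, so nothing is read from these counts either. The median standard error of a member's step was 0.24 on the log2(value + 1) scale.
With a library left out, a stage was represented by 1 library, which the fit assumes to vary like those of the other stages, and fewer peaks were called at each step, members or not. The median first step of the members on the log2(value + 1) scale was -0.53 with all libraries. Without gastrula replicate 1 or 2 it was -0.48 and -0.65, and without elongation replicate 1 or 2 it was -0.67 and -0.42. The size of the step thus stayed of the same order, while its median standard error went from 0.24 to between 0.26 and 0.27. With these gastrula libraries left out in turn, limma called the first step closing at 1 and 0 members (0.0889% and 0.0162% of all peaks), and with the elongation libraries left out at 1 and 0 (0.0275% and 0.00485%). Over all 61869 peaks the median first step on these 4 omissions was -0.19, -0.09, -0.14 and -0.12, in the same order. The second step was called at 4 and 1 members when elongation replicate 1 or 2 was omitted (0.695% and 0.215% of all peaks). On omission of mature larva replicate 1 or 2 the median second step of the members was -0.64 and -0.62, compared with -0.60 with all libraries. Over all peaks it was -0.03 and -0.07 on these omissions. The third step was called at 11 and 21 members on omission of mature larva replicate 1 or 2 (0.475% and 0.971% of all peaks), and at 25 and 62 on omission of competent larva replicate 1 or 2 (1.2% and 2.87%).

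The peaks called by the authors in single libraries gave another view of the same reads. Both gastrula lists held a peak over 427 members (93.0%) and both elongation lists over 355 (77.3%), but both mature larva lists over 112 (24.4%) and both competent larva lists over only 25 (5.45%). Of the peaks with a mean of at least 100, 84.1%, 43.8%, 43.4% and 38.5% lay under a peak in both lists of the same stages. At 263 members (57.3%, against 13.9%) a peak was called in both gastrula and both elongation libraries and in neither competent larva library. At 146 of these no peak was called in the mature larva either, and this whole pattern held for 6.81% of the peaks with a mean of at least 100. The lists come from the reads that chose the set, so these shares are a description.

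The lists of the gastrula and elongation samples bore each other's stage name, and with the names exchanged the gastrula and elongation shares change places. The lists also differed in length. When all were shortened to the 39906 peaks of the shortest, an alternative chosen after seeing the data, the shares of members in both lists were 46.6% for the gastrula, 57.5% for elongation, 14.6% for mature larvae and 3.92% for competent larvae. For the peaks with a mean of at least 100 the same shares were 31.0%, 23.3%, 30.7% and 33.2%, so the members were above them in both embryonic stages and below them in both larval stages. The larval shares were again below the embryonic ones, while the order of gastrula and elongation turned.

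**Figure D4:**
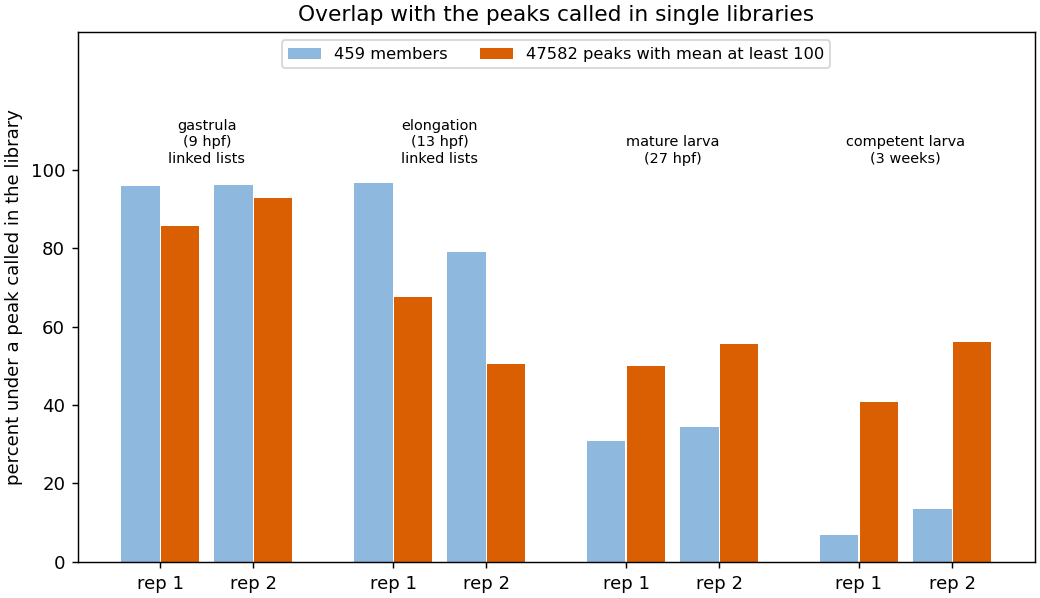
Percent of the 459 stepwise closing peaks (blue) and of the 47582 peaks with a mean of at least 100 (orange) that lie under a peak called in each single library, by at least 1 bp, with the gastrula and elongation lists placed by the sample to which they are linked. The blue bars are above the orange bars in all gastrula and elongation libraries and below them in all larval libraries, down to 6.97% and 13.5% in the competent larva.

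Of the named peaks, OFUS_peak_47101, OFUS_peak_37513 and OFUS_peak_22211 were each called in all 4 gastrula and elongation libraries and in no larval library. At OFUS_peak_47101 the fold enrichment over the local background was 3.95 and 3.36 in the gastrula lists and 5.28 and 3.85 in the elongation lists. Over all members that were called, the median enrichment in replicates 1 and 2 was 4.71 and 3.03 in the elongation lists and 3.76 and 2.63 in the gastrula lists. Within a replicate number elongation was thus the higher, the opposite order to the normalized signal, but elongation replicate 2 was below gastrula replicate 1. The same held over the called peaks with a mean of at least 100 (3.85 and 2.88 against 3.30 and 2.53). The order turns if the stage names of the lists are exchanged. The strong OFUS_peak_44737 was called in all 8 libraries, with 6.53 and 4.71 in the gastrula, 8.17 and 4.11 in elongation, 3.63 and 3.34 in mature larvae, and 3.09 and 2.94 in competent larvae. OFUS_peak_13336 was lost from the lists only in the competent larva, where both lists lacked it.

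A peak in all 8 lists lay over 25 members (5.45%), against 18.3% of the peaks with a mean of at least 100. At these 25 members the called peaks covered fewer bases at the end. The median of the bases covered was 955 and 1208 in the gastrula lists and 269 and 528 in the competent larva lists, while over all peaks found in all 8 lists it was 726 and 1024, and then 540 and 810. No member lay under peaks that covered at least 50% of its width in both competent larva lists, whereas 16.0% of the peaks with a mean of at least 100 did. A count of 0 of 459 allows a share of up to 0.654%, for counting error only. The members were chosen by a lower signal in these libraries, so the share is a description.

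Width did not enter the rule. The members were narrower than the peaks with a mean of at least 100, with a median of 566 bp (quartiles 338.5 and 986.5) against 718 bp, and similar to the 3763 other closing peaks, with 556 bp. The 319 stepwise opening peaks were the widest of these sets, with a median of 934 bp. Members made up 20.4 of 1000 peaks between 100 and 300 bp, 10.3 between 300 and 600 bp, and 7.39 to 7.86 in the 3 wider classes. The stepwise opening peaks went the other way, with 4.49 of 1000 in the narrowest class and 10.4 between 1000 and 1500 bp. Narrow peaks also had less signal and a wider spread, with a median mean of 122 and a gastrula coefficient of variation of 16.2% in the narrowest class against 750 and 9.95% in the widest. Libraries were separated at every step at 62.6% of the members in the narrowest class and 86.4% in the widest. Over the peaks with a mean of at least 100 in these classes the shares were 4.38% and 5.49%. The rule works on the same libraries, so nothing is read from the members' shares. The part of signal level and spread in the width of the set was not tested.

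The extremes of width followed the same course. The widest member, OFUS_peak_27174 (3135 bp, scaffold 7, 21339240-21342374), had a signal of 2501 and 2187 in the gastrula, 1852 and 1424 in elongation, 1365 and 1142 in mature larvae, and 931 and 894 in competent larvae. The narrowest, OFUS_peak_54440 (130 bp, scaffold 21, 1271217-1271346), had 166 and 168, 149 and 89.2, 77.6 and 75.6, and 28.9 and 48.9 at the same stages. Both had separated libraries at every step, with total falls of 2.57-fold and 4.29-fold.

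The stepwise closing peaks were spread over the genome and lay closer to each other than other peaks lay to them. They were found on 35 of 40 scaffolds, and the 5 scaffolds without any held only 83 peaks with a mean of at least 100. On the 19 scaffolds with at least 1000 such peaks, members made up between 4.13 of 1000 (scaffold 17) and 16.2 of 1000 (scaffold 14). Another member lay within 50 kb of 116 members (25.3%), while a member lay within 50 kb of 11.5% of the peaks with a mean of at least 100 and of 19.5% of the other closing peaks. Within 10 kb the shares were 14.2%, 3.08% and 8.34%. Members also lay nearer to any consensus peak, with a median gap of 1191 bp against 1769 bp, and 1485 bp for the other closing peaks. The median gap to the nearest member was similar for members (282 kb) and the other closing peaks (291 kb). For the peaks with a mean of at least 100 it was 359 kb. Linked by gaps of up to 50 kb, the members formed 42 pairs, 8 groups of 3 and 2 groups of 4, and 343 stood alone.

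Most members in a 100 kb stretch were found on scaffold 1, where 4 lay between 36268987 and 36326620 among 19 peaks with a mean of at least 100. OFUS_peak_4150 had a signal of 622 and 801 in the gastrula, 602 and 479 in elongation, 406 and 408 in mature larvae, and 296 and 284 in competent larvae. OFUS_peak_4169, at the other end, had 359 and 363, 265 and 205, 112 and 148, and 106 and 87.9. Total falls in this stretch were 2.45-fold at OFUS_peak_4150, 3.51-fold at OFUS_peak_4154, 3.04-fold at OFUS_peak_4167 and 3.73-fold at OFUS_peak_4169, all below the 4-fold reached by 177 members elsewhere.

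Peaks beside the set had, in the median, the same direction. Among the 338 other peaks with a mean of at least 100 that lay up to 2 kb from a member, the median change from gastrula to competent larva was -0.86 on the log2(value + 1) scale, and 36.7% had a total fall of at least 2.197-fold while 4.14% had a rise as large. Between 2 and 5 kb the median change was -0.64, between 5 and 10 kb -0.55 and between 10 and 20 kb -0.37. Beyond 100 kb, at 38040 peaks, it was -0.27, with 7.16% closing and 8.96% opening. The difference between the nearest and the farthest peaks was -0.59, and it was -0.66 in replicate 1 alone and -0.60 in replicate 2 alone.

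The same order was found when the choice and the change came from different libraries. Up to 2 kb from peaks chosen in replicate 1, the change in replicate 2 differed by -0.44 from that beyond 100 kb, and for peaks chosen in replicate 2 the change in replicate 1 differed by -0.67. After quantile normalization the difference was -0.70. Around the 319 stepwise opening peaks the sign was the opposite, with a median change of 0.26 at the 234 peaks up to 2 kb away and -0.32 beyond 100 kb. Neighbouring peaks share the sequence around them and the libraries, so they are not independent of each other.

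**Figure D5:**
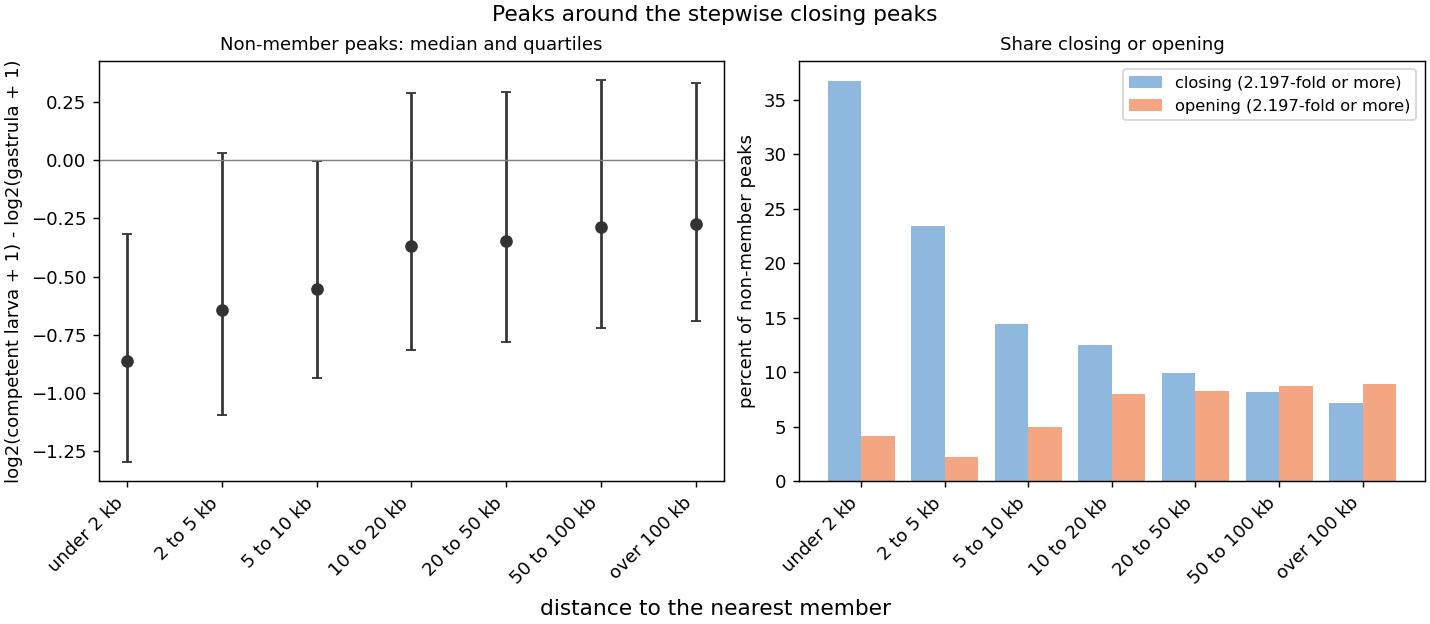
Change from gastrula to competent larva of peaks outside the set by their distance from the nearest stepwise closing peak, as the median and quartiles of log2(value + 1) differences (left) and as the percent closing or opening at least 2.197-fold (right). The median goes from -0.86 up to 2 kb away to -0.27 beyond 100 kb, and the closing share from 36.7% to 7.16%.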

How the data were processed

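Stage and replicate of each library were taken from the labels. The deposited signal is the number of reads per consensus peak after normalization with DESeq2 by the authors, and it is not divided by width. Before this, the authors trimmed reads, mapped them with NextGenMap, removed duplicates, shifted reads for Tn5, called peaks per library with MACS2 2.2.7.1, kept replicated peaks outside repeats and merged them with DiffBind. The genome build is not given in the sources used here, and coordinates are 1-based scaffold positions of the deposited table. The deposited lists of single libraries hold, from MACS2 and by the authors, a fold enrichment (a ratio to local background) and −log10 p-values and q-values. Low values came out whole at 98.0% to 100% with a tolerance of 0.1 read once divided by the value of 1 read, which gave approximate reads per library, although not an exact count at higher levels. Steps between stages were therefore fitted on the log2(value + 1) scale by limma 3.58.1 (R 4.3.3), in 1 model of all 8 libraries with a mean trend. This scale understates the change of low peaks, and p-values measure only the spread between the replicates, which the study describes as biological. The code was tested on simulated data. Lists were overlapped by at least 1 bp with bedtools 2.31.1, each placed with the sample to which it was linked.

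The peaks named were the 8 steepest members with separated libraries, the 4 with the highest gastrula mean, the 4 most even among those with a total fall of at least 4-fold, the 3 nearest inside and outside the limit, those in the densest 100 kb, and the widest and narrowest. The members, lists and rules were chosen with earlier results of these data known. Another 2 accessibility columns, of other samples, were not used, and nor was the expression table, whose identifiers have no position in the coordinates of the peaks. Sequence features and nearest genes were not analysed here. Alternatives were other limits, scalings, pseudocounts, filters, overlaps, a replicate block and the omission of each library.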

Additional observations from a re-analysis of the deposited data

How the results depend on the processing

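The 459 members became 282 with a mean of at least 200, 1463 with a step of 1.2 times, 51 with a step of 1.5 times, 272 after quantile normalization (231 of them among the 459), 208 with libraries scaled to the same median, and 28 when the lower library of a stage had to be 1.3 times the higher of the next. With single libraries left out the rule gave 326 to 663 peaks, which held 53.2% to 84.5% of the 459. Members called by limma numbered 14 (first step) with a pseudocount of 10 (0.276% of all peaks). With all 63732 peaks in the fit they numbered 0, 38 and 53 at the 3 steps (0.00628%, 0.99% and 3.56% of all peaks). For the count of 0, limma gave a fall with an unadjusted p under 0.05 at 221 members and at 12.7% of all peaks. At the third step 79 were called after quantile normalization (4.35% of all peaks). Leaving out a library gave 0 to 1, 0 to 16 and 11 to 62. On these omissions a stage had 1 library, and fewer peaks were called at each step, members or not, so nothing is read from these counts. The median second step of the members without mature larva replicate 1 or 2 was -0.64 and -0.62 on the log2(value + 1) scale. Over all peaks it was -0.03 and -0.07. With the replicate number as a block, 54, 195 and 170 members were called instead of 23, 155 and 138, with 1.19%, 6.18% and 8.95% of all peaks. Replicate differences correlated at 0.21 between gastrula and elongation, 0.12 between gastrula and mature larva and 0.01 to 0.10 between the other stages, and the labels name nothing that a number shares, so the pairing was not taken as given. The cause of these shifts was not tested.

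Of the peaks chosen in replicate 1, 15.3% fell at least 1.3 times at every step in replicate 2. Another member lay within 20 kb of 18.3% and within 100 kb of 34.2%. The shares in both lists of the gastrula, elongation, mature larva and competent larva were 68.8%, 43.8%, 9.59% and 0% with an overlap of at least 50%, and 85.4%, 58.6%, 13.3% and 3.05% with a −log10 q-value of at least 5. Shortened lists gave 46.6%, 57.5% and 14.6% for the gastrula, elongation and mature larva, and exchanged names gave 77.3% for the gastrula and 93.0% for elongation. The difference of near and far peaks was -0.66 in replicate 1, -0.70 after quantile normalization, and -0.44 and -0.67 when choice and change came from different replicates. The quantile, split-replicate and shortened-list alternatives for near peaks and lists were added after seeing the data. Of 50 values under alternatives other than leaving out a library, 32 moved beyond their limit and 18 did not. No genome or gene annotation in the coordinates of the peaks was used, so sequence and nearest genes were not analysed here. Depth limits the last step most, with 48 members under 20 reads in competent larva replicate 1.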
